A study of Mus musculus with 8 samples.

Results

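The adipokines described here are 8 secreted products of fat cells, and they were taken by gene name from the 22962 genes of the expression table: Adipoq, Retn, Lep, Rbp4, Cfd, Nampt, Apln and Nrg4. All 8 were in the table, and all 8 passed the filter on low values (a mean of at least 0.5 FPKM) that left 12060 tested genes. Bulk RNA sequencing measured 4 libraries of DoxSa-treated and 4 libraries of DMSO-treated fat cell cultures, treated on day 6. The cultures were wild type (WT) and came from the stromal vascular fraction of gonadal fat, the cells left when floating adipocytes are removed, and had been differentiated into what the labels call mature adipocytes. The labels do not spell out DoxSa; the study as a whole is about 1-deoxysphingolipids, which arise when serine palmitoyltransferase uses alanine rather than serine. DMSO is the solvent. The sources used here give no dose, length of exposure or number of animals or cultures behind the libraries. The p-values therefore speak of the spread among these 8 libraries alone, and that spread may be technical.

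Adipokines are hormones and enzymes through which fat tissue reports its energy state and acts on appetite, insulin sensitivity, inflammation and blood vessels. Adiponectin and adipsin are made mainly by differentiated adipocytes and are among the most abundant products of these cells, while leptin is made mainly by large, lipid-filled adipocytes in living tissue and is usually low in culture. Resistin is an adipocyte product in mice, unlike in humans, where it comes mainly from macrophages and monocytes.

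Each library held between 39213008 and 41365861 reads by the totals recovered from the FPKM steps. All 15 adipocyte markers were above the filter, with Fabp4, the fatty acid binding protein of adipocytes, between 8603 and 9187 FPKM in DoxSa and between 8512 and 8906 FPKM in DMSO. Macrophage markers were also strong, with a summed level of 7026 to 7506 FPKM in DoxSa and 6298 to 7254 FPKM in DMSO over 12 genes. Most of that sum was Lyz2, at 4795 to 5263 FPKM in DoxSa and 4328 to 5100 FPKM in DMSO. Progenitor and fibroblast markers summed to 3298 to 3718 FPKM in DoxSa and 3339 to 3696 FPKM in DMSO. Endothelial and mesothelial markers were low, at summed levels of 1.95 to 2.22 and 11.6 to 16.2 FPKM in DoxSa and 1.45 to 1.90 and 16.8 to 17.3 FPKM in DMSO. Ucp1, the uncoupling protein that defines brown and beige fat cells, had 0 to 6 reads per library. Of the 6 beige and brown markers listed, 2 passed the filter and 0 were called, against 5.90% of all tested genes. The 2 tested were Cox8b and Elovl3. Cox8b lay at 5.46 to 9.15 FPKM in DoxSa and 7.94 to 12.1 FPKM in DMSO. Elovl3 had a mean of 0.592 FPKM.

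In DoxSa, Retn and Rbp4 fell and Apln rose, while Adipoq, Cfd, Nampt, Lep and Nrg4 did not pass the test. Thus 1 of 8 adipokines was called higher and 2 of 8 lower (limma on log2(FPKM + 1), n = 4 in each group, adjusted p under 0.05 after Benjamini-Hochberg). Over all 12060 tested genes, 3.88% were called higher and 2.02% lower, 5.90% in all (468 and 244 genes, or 384 and 316 with quantile normalization). The DoxSa and DMSO libraries did not overlap for those same 3 adipokines, against 12.5% of all tested genes. The median log2 fold change of the 8 adipokines was -0.07, and that of all tested genes 0.012. In bulk RNA, fewer adipocytes and less of a transcript per adipocyte cannot be told apart. Of the 15 adipocyte markers 1 was called lower (Dgat2, an enzyme of triglyceride synthesis) and 0 higher. Their mean log2 level relative to the 8-library mean lay between -0.10 and 0.05 in DoxSa and between -0.02 and 0.08 in DMSO, so the groups overlapped. Of 11 tested macrophage markers 3 were called higher (Cd14, Fcgr1 and Ptprc) and 0 lower, and none of the 12 listed was at 0 in all libraries. None of the 11 had a log2 fold change below 0. The mean log2 level of the 11 was 0.05 to 0.10 in DoxSa and -0.15 to 0.00 in DMSO, so here the groups did not overlap. The part of these markers in the results was not tested.

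**Figure D1:**
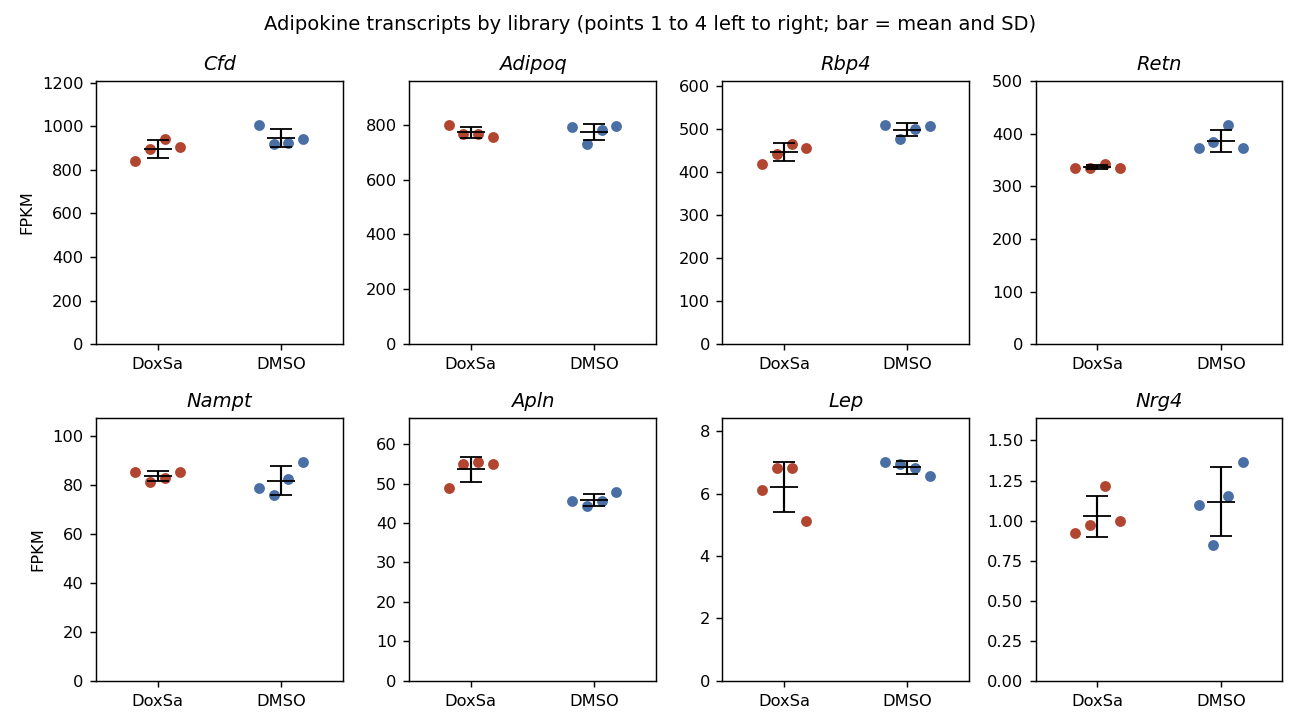
FPKM of the 8 adipokines in each library, DoxSa left and DMSO right in every panel, with the mean and SD of the 4 libraries as bars and axes that start at 0. The DoxSa points lie wholly below the DMSO points for Rbp4 and Retn and wholly above them for Apln, and the groups overlap in the other panels.

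In level per length the adipokines kept one order in all 8 libraries: Cfd, Adipoq, Rbp4, Retn, Nampt, Apln, Lep and Nrg4. No neighbours in this order had overlapping ranges over the 8 libraries, and the closest pair, Cfd and Adipoq, stood at a ratio of means of 1.19. Mean FPKM over the 8 libraries was 921 for Cfd, 773 for Adipoq, 472 for Rbp4 and 362 for Retn, and it was 82.5 for Nampt, 49.7 for Apln, 6.53 for Lep and 1.07 for Nrg4. Cfd had a rank by FPKM between 42 and 58 in each library, whereas Nrg4 had a rank between 10386 and 11298. Together the 8 adipokines made up 0.329% to 0.343% of the reads in DoxSa and 0.337% to 0.357% in DMSO. In summed FPKM they reached 2531 to 2662 in DoxSa and 2636 to 2810 in DMSO, ranges that overlapped.

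Retn encodes resistin, a small cysteine-rich hormone that in mice opposes insulin action. It measured 335, 335, 343 and 334 FPKM in DoxSa 1 to 4, against 373, 384, 417 and 373 FPKM in DMSO 1 to 4. Every DoxSa library lay below every DMSO library, and the DoxSa libraries were closer to each other (SD 3.93 FPKM) than the DMSO libraries were (SD 20.8 FPKM). Retn fell by 12.9% between the group means, a log2 fold change of -0.20 ± 0.04 (SE, 95% interval -0.28 to -0.11, adjusted p = 0.0151). It rested on 17144 to 21838 reads per library, and by p it ranked 296 among the 12060 genes. The call held without any 1 of the 8 libraries and was lost with no filter on low values (adjusted p = 0.0650, range 0.00437 to 0.0650 over 18 alternatives).

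Rbp4 encodes the retinol-binding protein that carries vitamin A in blood and that is linked in mice to insulin resistance when fat tissue makes more of it. It measured 418, 442, 466 and 457 FPKM in DoxSa 1 to 4, against 510, 476, 500 and 508 FPKM in DMSO 1 to 4. The groups were apart, but only narrowly, with DoxSa 3 just under DMSO 2. Rbp4 fell by 10.6% between the group means, a log2 fold change of -0.16 ± 0.04 (SE, 95% interval -0.25 to -0.07, adjusted p = 0.0413). This call was lost without any 1 of DoxSa 1, DoxSa 2, DoxSa 4, DMSO 1, DMSO 3 and DMSO 4 (adjusted p between 0.0654 and 0.107), and with no filter, with no intensity trend and with library quality weights. The log2 fold change stayed between -0.20 and -0.13 over the 18 alternatives, with adjusted p between 0.0156 and 0.130.

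Apln encodes apelin, a peptide that widens blood vessels and that adipocytes release in answer to insulin. It measured 48.8, 54.9, 55.6 and 55.0 FPKM in DoxSa 1 to 4, against 45.5, 44.3, 45.5 and 47.9 FPKM in DMSO 1 to 4. All DoxSa libraries were higher than all DMSO libraries, although DoxSa 1 was only slightly above DMSO 4. The means were 53.6 ± 3.17 FPKM in DoxSa and 45.8 ± 1.51 FPKM in DMSO (SD), a ratio of 1.17 and a log2 fold change of 0.22 ± 0.05 (SE, 95% interval 0.12 to 0.32, adjusted p = 0.0169). The call was lost without DoxSa 2 (adjusted p = 0.0562), without DoxSa 3 (adjusted p = 0.0503) and with no filter on low values (adjusted p = 0.0745). Over the 18 alternatives adjusted p lay between 0.00408 and 0.0745.

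The bases just before the transcript starts of these 3 genes are printed because their transcripts were the ones called. They are 250 bases each, taken from RefSeq on build GRCm38.p6, which is not the GRCm39 build named for the expression table. Capitals mark matches to a fixed set of short motifs, searched on both strands unless stated. These were a direct repeat of AGGTCA spaced by 1 base (PPAR-RXR), TTNNGCAA (C/EBP), GGG and TTTCC spaced by 2 bases (NF-kB), TGATGNAAN (ATF4-CHOP), CACGTG (E-box), ACGTG (hypoxia core, also held in the E-box), TGACNNNGC (antioxidant element), TATAA (TATA box, forward strand only) and CCAAT. The last 2 were added after the sequences had been seen. The table gives Rbp4 more than 1 start, and both windows are shown. Lep is added because its window holds the C/EBP palindrome.
Retn, chr8:3655520-3655769, plus strand: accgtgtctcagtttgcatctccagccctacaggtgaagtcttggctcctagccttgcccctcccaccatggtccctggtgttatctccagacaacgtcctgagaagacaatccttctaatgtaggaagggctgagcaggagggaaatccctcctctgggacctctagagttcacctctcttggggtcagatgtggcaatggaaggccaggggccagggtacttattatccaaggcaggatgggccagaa
Rbp4, downstream start, chr19:38124812-38125061, minus strand: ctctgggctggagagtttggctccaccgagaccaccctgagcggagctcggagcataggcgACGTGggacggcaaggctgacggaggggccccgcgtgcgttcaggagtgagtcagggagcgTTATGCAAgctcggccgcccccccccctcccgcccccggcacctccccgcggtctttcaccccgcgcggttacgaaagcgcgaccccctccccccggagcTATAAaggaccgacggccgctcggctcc
Rbp4, upstream start, chr19:38125322-38125571, minus strand: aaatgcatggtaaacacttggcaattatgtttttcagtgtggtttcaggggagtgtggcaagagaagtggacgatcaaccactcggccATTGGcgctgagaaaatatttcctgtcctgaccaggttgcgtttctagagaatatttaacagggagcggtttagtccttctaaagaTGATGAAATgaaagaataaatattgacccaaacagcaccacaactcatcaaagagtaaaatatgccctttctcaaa
Apln, chrX:48034854-48035103, minus strand: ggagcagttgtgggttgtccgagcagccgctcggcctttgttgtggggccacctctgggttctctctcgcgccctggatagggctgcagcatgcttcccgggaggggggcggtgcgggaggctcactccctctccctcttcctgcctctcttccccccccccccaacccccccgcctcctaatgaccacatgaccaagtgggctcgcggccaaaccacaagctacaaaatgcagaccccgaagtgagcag
Lep, chr6:29059971-29060220, plus strand: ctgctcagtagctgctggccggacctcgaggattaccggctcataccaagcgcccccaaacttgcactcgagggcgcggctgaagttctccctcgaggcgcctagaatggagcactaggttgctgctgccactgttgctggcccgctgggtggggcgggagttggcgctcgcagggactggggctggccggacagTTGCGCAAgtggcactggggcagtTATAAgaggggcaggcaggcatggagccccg

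The windows of Retn and Apln, which moved in opposite directions, held none of these letter strings. The window of Cfd, which was not called, held none either. The downstream Rbp4 start had a TATA box ending 24 bases before it, a C/EBP match 121 to 128 bases before it and a hypoxia core further up. The upstream Rbp4 start had an ATF4-CHOP match and a CCAAT box. The Lep window had its C/EBP palindrome 48 to 55 bases before the start and a TATA box 27 to 31 bases before it. Among the other adipokines that were not called, Adipoq had CCAAT matches, and Nampt and Nrg4 each had a hypoxia core. Of all 32851 promoter windows of the table, 9.56% held a C/EBP match, 3.44% an ATF4-CHOP match, 16.6% a hypoxia core, 16.0% a TATA box and 33.8% a CCAAT box. NF-kB, found in 1.41% of all windows, E-box, found in 6.02%, and the PPAR-RXR repeat, found in 0.0335%, matched no adipokine window. The antioxidant element, in 10.2% of all windows, matched that of Nrg4 alone. Base composition also differed, with a GC content of 70.8% before the downstream start of Rbp4, 40.8% before its upstream start, 65.2% for Apln and 54.8% for Retn. Among the adipokines that were not called it was 75.6% for Nampt, 65.6% for Lep, 57.6% for Cfd, 53.2% for Nrg4 and 48.8% for Adipoq. The median over all windows was 52.4%.

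Adipoq encodes adiponectin, which raises insulin sensitivity and is the most widely used marker of adipocyte differentiation. It measured 799, 767, 767 and 754 FPKM in DoxSa 1 to 4, against 790, 730, 780 and 794 FPKM in DMSO 1 to 4. The groups overlapped, and the log2 fold change was -0.00355 (95% interval -0.09 to 0.08, adjusted p = 0.977). That interval spans 0.942-fold to 1.06-fold. Other adipokines were also set against Adipoq within each library. Retn per Adipoq was 0.419 to 0.447 in DoxSa and 0.470 to 0.534 in DMSO, and Rbp4 per Adipoq was 0.524 to 0.608 in DoxSa and 0.640 to 0.652 in DMSO. Apln per Adipoq was 0.0611 to 0.0729 in DoxSa and 0.0575 to 0.0607 in DMSO. These 3 ratios did not overlap between the groups, in the same directions as the FPKM values, while the ratios of Cfd and Lep to Adipoq overlapped. Because Adipoq itself hardly differed between the groups, the ratios largely repeat the FPKM values and add no separate evidence. Ratios of Nampt and Nrg4 to Adipoq were not taken.

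Cfd encodes adipsin, or complement factor D, the protease that cuts factor B and so starts the alternative complement pathway. It measured 838, 896, 940 and 903 FPKM in DoxSa 1 to 4, against 1006, 919, 921 and 940 FPKM in DMSO 1 to 4. DoxSa 1 was lowest and DMSO 1 highest, while the remaining 6 libraries mixed between the groups. The log2 fold change was -0.08 ± 0.04 (SE, 95% interval -0.18 to 0.02, adjusted p = 0.351). Without DoxSa 1 it was -0.0508, and without DMSO 1 it was -0.0521.

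Lep encodes leptin, the satiety hormone, and had 690 to 935 reads per library. It measured 6.12, 6.80, 6.82 and 5.13 FPKM in DoxSa 1 to 4, against 7.02, 6.96, 6.80 and 6.57 FPKM in DMSO 1 to 4. DoxSa 4 and DoxSa 1 were the lowest of all, and DoxSa 2 and DoxSa 3 lay among the DMSO values. The log2 fold change was -0.13 ± 0.07 (SE, 95% interval -0.28 to 0.03, adjusted p = 0.371), and without DoxSa 4 it was -0.0499. The relative spread was 12.8% in DoxSa and 2.94% in DMSO, where counting alone gives about 3.40%.

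Nampt encodes the enzyme that sets the pace of NAD salvage and that is also released from cells as visfatin. It measured 85.0, 81.0, 82.7 and 85.0 FPKM in DoxSa 1 to 4, against 78.7, 75.6, 82.4 and 89.4 FPKM in DMSO 1 to 4, so the DoxSa values lay inside the DMSO range. The log2 fold change was 0.04 ± 0.05 (SE, 95% interval -0.07 to 0.14, adjusted p = 0.747). Without DMSO 2 it was 0.000948, and without DMSO 4 it was 0.0806. Nrg4 encodes neuregulin 4, an epidermal growth factor-like ligand that brown fat releases in mice. It measured 0.925, 0.971, 1.21 and 0.999 FPKM in DoxSa 1 to 4, against 1.10, 0.845, 1.15 and 1.37 FPKM in DMSO 1 to 4. The groups overlapped, and the log2 fold change of Nrg4 was -0.06 ± 0.08 (SE, 95% interval -0.23 to 0.11, adjusted p = 0.745). The relative spread was 12.5% in DoxSa and 19.3% in DMSO, where counting alone gives about 8.31% at 110 to 186 reads per library. Without DMSO 4 the log2 fold change was -0.00271, and without DMSO 2 it was -0.123.

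**Figure D2:**
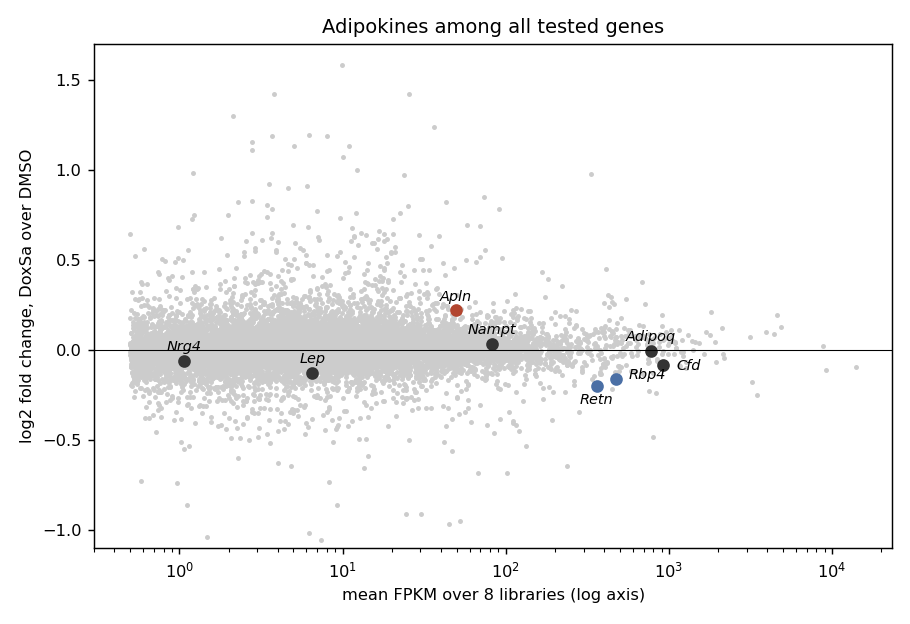
Log2 fold change (DoxSa over DMSO, on log2(FPKM + 1)) against mean FPKM on a log axis for all 12060 tested genes (grey), with the adipokines marked: red called higher, blue called lower, black not called. Apln at 0.22 and Retn at -0.20 are the adipokines farthest from 0, while tested genes reach from -1.05 to 1.58.

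The annotation terms of the deposited table were also read for the 8 adipokines. All 8 carried the term extracellular space, which 5.28% of all genes carried. The adipokines were chosen as secreted products, so this term follows from the choice. The term hormone activity was carried by 4 of them (Adipoq, Retn, Lep and Apln). Of the 677 tested genes of the extracellular space, 85 were called higher and 58 lower, or 21.1%, against 5.90% of all tested genes. Of the 34 tested genes of hormone activity, 5 were called higher and 7 lower. Both counts include called adipokines: Retn, Rbp4 and Apln for extracellular space, and Retn and Apln for hormone activity. These terms were looked up after the results were known.

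Beyond the 8, 100 genes related to them in the form of receptors, partners and other secreted factors were followed, of which 65 were tested. Of these, 10 were called higher and 4 lower, or 21.5%, against 5.90% of all tested genes. The 10 include Btc, which passed the filter only because of its level in DoxSa. The lists were chosen with earlier results of these data known, and no test was run on this share. Without DoxSa 1 or without DoxSa 2, 5 of the related genes were called higher. The median log2 fold change of the 65 was 0.017, and the values reached from -0.40 for Adm to 0.91 for Gdf15.

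Among other secreted factors, 5 of 16 tested genes rose and 3 fell, so 8 of 16 were called, against 5.90% of all tested genes. Of the tested genes of the extracellular space, 21.1% were called. This list too was chosen with earlier results of these data known, and no test was run on its share. Rarres2, which encodes the chemoattractant adipokine chemerin, measured 526, 508, 473 and 446 FPKM in DoxSa 1 to 4, against 434, 385, 393 and 412 FPKM in DMSO 1 to 4 (log2 fold change 0.26 ± 0.06, SE, adjusted p = 0.0184). The groups did not overlap, and the call was lost without DoxSa 1, DoxSa 2 or DMSO 2. Metrnl, which encodes a secreted factor of fat and muscle linked to beige fat in mice, averaged 28.1 ± 1.43 FPKM in DoxSa and 24.1 ± 1.01 FPKM in DMSO (SD, adjusted p = 0.0179), and its call was lost without DoxSa 1, DoxSa 2 or DMSO 2. Gdf15, a stress-induced hormone, averaged 8.24 ± 0.825 FPKM in DoxSa and 3.90 ± 0.216 FPKM in DMSO, and Lcn2, the iron-scavenging lipocalin 2, averaged 55.4 ± 6.84 FPKM in DoxSa and 30.9 ± 4.21 FPKM in DMSO (SD). Both rose, Gdf15 by 0.91 ± 0.06 on the log2 scale (adjusted p = 2.97e-05) and Lcn2 by 0.82 ± 0.10 (adjusted p = 0.00088). Angptl2, an angiopoietin-like factor, rose with 0.14 ± 0.04 (adjusted p = 0.0480). This call was held in 5 of 18 alternatives. It was lost without any 1 library other than DMSO 1, with no filter, with no intensity trend and under each of the 3 other scalings.

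The secreted factors that fell were Adm, Ccn5 and Fbn1. Adm, which encodes adrenomedullin, a vasodilator peptide like apelin, measured 82.8, 96.2, 103 and 99.6 FPKM in DoxSa 1 to 4, against 133, 123, 130 and 119 FPKM in DMSO 1 to 4. The 2 vasodilator peptides thus moved in opposite directions, with -0.40 ± 0.06 for Adm (SE, adjusted p = 0.00366) and 0.22 ± 0.05 for Apln. Fbn1, which encodes the matrix protein fibrillin 1 and in its last part the hormone asprosin, averaged 105 ± 4.26 FPKM in DoxSa and 124 ± 3.94 FPKM in DMSO (log2 fold change -0.23 ± 0.04, adjusted p = 0.00543). Ccn5, a secreted WNT-regulated protein, differed by -0.28 ± 0.06 (adjusted p = 0.0166). The C1q and TNF related proteins, relatives of adiponectin, had 0 of 6 tested members called, against 5.90% of all tested genes. With 6 genes, 0 calls cannot be told apart from that share. The log2 fold changes of the 6 lay between -0.34 and -0.03.

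**Figure D3:**
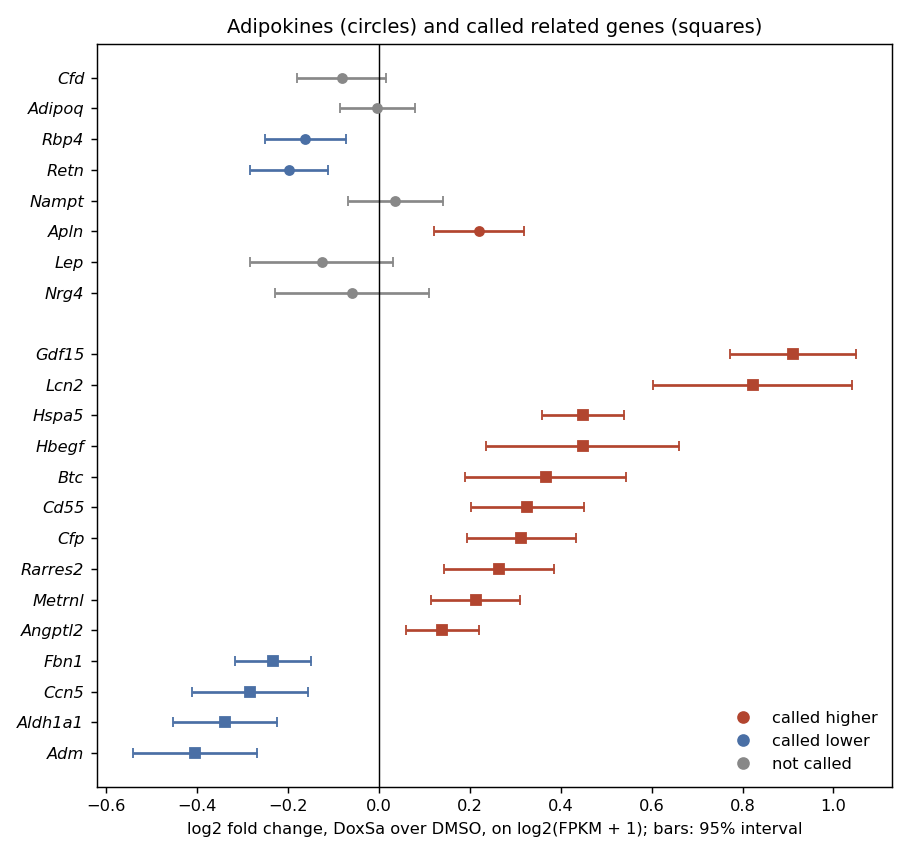
Log2 fold changes, DoxSa over DMSO on log2(FPKM + 1), with 95% intervals for the 8 adipokines (circles, by level) and the 14 called related genes (squares, by fold change). Gdf15 at 0.91 lies farthest to the right and Adm at -0.40 farthest to the left, and Apln, Rbp4 and Retn are the adipokines whose intervals clear 0.

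Of 11 receptor genes, which include Cmklr1 for chemerin and are otherwise those of the adipokines, 7 were under the filter on low values. The other 4 were tested and 0 were called, against 5.90% of all tested genes. With 4 genes, 0 calls cannot be told apart from that share. Adipor1 and Adipor2, the receptors of adiponectin, averaged 56.6 and 116 FPKM in DoxSa and 56.8 and 120 FPKM in DMSO. Cap1, proposed as a resistin receptor in human monocytes, averaged 139 FPKM in DoxSa and 143 FPKM in DMSO, and Cmklr1, the chemerin receptor, averaged 9.30 FPKM in DoxSa and 8.96 FPKM in DMSO. Lepr, the leptin receptor, had 0 to 5 reads per library, Stra6, the receptor of retinol-binding protein, 0 to 4, Aplnr, the apelin receptor, 0 to 2, and Erbb4, a neuregulin receptor, 0 to 2. Of the other listed receptor genes under the filter, Stra6l had 1 to 8 reads, Cdh13 had 55 to 83 and Erbb3 had 80 to 125. These 7 were not tested.

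In the alternative complement pathway, around Cfd, 2 of 11 tested genes rose and 0 fell, or 18.2%, against 5.90% of all tested genes. Cfp, which encodes properdin, the stabiliser of the C3 convertase, measured 124, 131, 126 and 125 FPKM in DoxSa 1 to 4, against 112, 97.2, 106 and 92.2 FPKM in DMSO 1 to 4 (log2 fold change 0.31 ± 0.05, SE, adjusted p = 0.00802). Cd55, which encodes the factor that speeds the decay of that enzyme, averaged 14.6 ± 0.749 FPKM in DoxSa and 11.4 ± 0.928 FPKM in DMSO (0.33 ± 0.06, adjusted p = 0.00751). C3 itself averaged 115 ± 8.47 FPKM in DoxSa and 118 ± 9.59 FPKM in DMSO (adjusted p = 0.861), and Cfb, the substrate of adipsin, 34.7 ± 4.72 FPKM in DoxSa and 28.1 ± 6.43 FPKM in DMSO (adjusted p = 0.262). Of the macrophage markers, 3 of 11 tested were called higher in DoxSa, and their part in the Cfp and Cd55 values was not tested.

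In the retinol genes around Rbp4, 1 of 6 tested members was called, or 16.7%, against 5.90% of all tested genes. Aldh1a1, which encodes an enzyme that makes retinoic acid, measured 8.87, 9.08, 9.53 and 9.17 FPKM in DoxSa 1 to 4, against 11.7, 13.2, 11.2 and 11.4 FPKM in DMSO 1 to 4 (log2 fold change -0.34 ± 0.05, SE, adjusted p = 0.00366). Rdh10, which encodes the enzyme before it in the pathway, averaged 4.18 ± 0.516 FPKM in DoxSa and 3.23 ± 0.366 FPKM in DMSO (adjusted p = 0.0549). Ttr, the blood partner of retinol-binding protein, was low and uneven, at 1 to 97 reads per library. In the NAD genes around Nampt, 0 of 12 tested members were called, against the same 5.90%.

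Of 8 genes of adiponectin assembly and secretion 1 was called, or 12.5%, against 5.90% of all tested genes. It was the endoplasmic reticulum chaperone gene Hspa5, at 475 ± 16.5 FPKM in DoxSa and 348 ± 16.5 FPKM in DMSO (adjusted p = 2.01e-04). Erp44 and Ero1a, which retain and oxidise adiponectin before release, differed by 0.06 ± 0.04 (adjusted p = 0.465) and by -0.01 ± 0.07 (adjusted p = 0.976). Among epidermal growth factor-like ligands, the family of Nrg4, 8 of 10 listed genes were under the filter, and Hbegf and Btc were called higher. Hbegf averaged 2.19 ± 0.465 FPKM in DoxSa and 1.32 ± 0.160 FPKM in DMSO (adjusted p = 0.0208), and Btc averaged 0.835 ± 0.0356 FPKM in DoxSa and 0.431 ± 0.176 FPKM in DMSO (adjusted p = 0.0222). The call of Hbegf was lost without DoxSa 1, DoxSa 2, DMSO 3 or DMSO 4, and that of Btc without DMSO 2 or any 1 of the DoxSa libraries. The DMSO mean of Btc lay under the filter, so that Btc was tested only because of its level in DoxSa.

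The genes with the most similar pattern across the 8 libraries were found by Pearson correlation of log2(FPKM + 1) among 10728 protein coding genes. The values describe these libraries, which share the 2 treatments, and carry no test. For Retn they included Pcp4l1 (r = 0.974) and Bmf (r = 0.963), both called lower in DoxSa. For Rbp4 they were Prelp, a connective tissue proteoglycan gene (r = 0.985), Dkk2 (r = 0.984) and Igf2 (r = 0.979), also all called lower. For Apln they were Pvr (r = 0.967), Nos2, the inducible nitric oxide synthase gene (r = 0.962), and Stac2 (r = 0.961), with Pvr and Nos2 called higher. For Adipoq, whose groups did not separate, they were Pus10 (r = 0.917), Fignl1 (r = 0.911) and Zfp606 (r = 0.910), none of them called. For Lep they were Grb14 (r = 0.965), Mis18a (r = 0.943) and Cdk9 (r = 0.935), and for Cfd 1700025G04Rik (r = 0.942), Htra1 (r = 0.931) and Adgrd1 (r = 0.929). For Nampt they were Pcmtd1 (r = 0.988), Mtif2 (r = 0.965) and Mmut (r = 0.957), and for Nrg4 Tcn2 (r = 0.921), Kif21a (r = 0.896) and Smtnl2 (r = 0.888). None of these 12 genes was called. Among the adipokines themselves, the closest pair over the 8 libraries was Rbp4 and Cfd (r = 0.85), and the most opposed was Retn and Apln (r = -0.80). The FPKM of Retn per FPKM of Apln was 6.08 to 6.85 in DoxSa and 7.79 to 9.17 in DMSO.

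**Figure D4:**
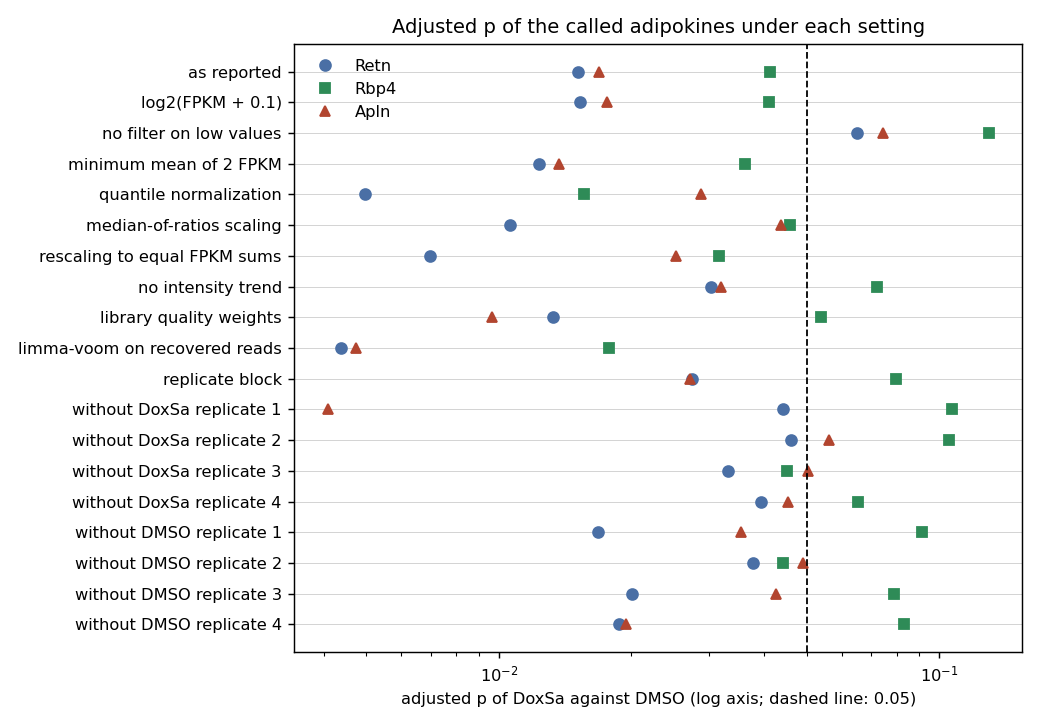
Adjusted p (log axis, dashed line at 0.05) of Retn, Rbp4 and Apln as reported and under each of the 18 alternatives, with the settings that leave out DoxSa libraries above those that leave out DMSO libraries. Retn passes the line once, with no filter at 0.0650, while Rbp4 lies to its right in 10 settings.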

How the data were processed

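Transcripts were measured in 8 libraries, 4 DoxSa and 4 DMSO, grouped by their titles. TRIzol extraction and the VAHTS Universal V6 library kit were used, per the labels' protocols. The authors deposited 1 table of FPKM, reads scaled to gene length and library total. HISAT2, HTSeq and GRCm39 were used, per the submitters' processing notes; the sources used here name no version, annotation or strand setting. Whole reads were recovered from the FPKM steps for 22962 of 22962 genes (within 0.001 of a whole number), with library totals of 39213008 to 41365861.

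The 12060 genes whose mean reached 0.5 FPKM were tested with limma 3.58.1 (R 4.3.3) on log2(FPKM + 1) with an intensity trend and no covariate. Adjusted p is Benjamini-Hochberg over all tested genes, called under 0.05. Fold changes on this scale understate those of low genes. The scripts were tested on simulated data. The alternatives were another pseudocount, other filters, scalings and spread models, limma-voom on recovered reads, a replicate block and leaving out each library.

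The adipokines and gene lists were chosen with earlier results of these data known. Named genes were the adipokines, every called gene of each related list, the main partners of an adipokine, and the 3 protein coding genes (mean of at least 1 FPKM) most correlated with it, of which 1 is not reported here. The TATA and CCAAT motifs and the annotation terms were chosen after the data were seen. Promoters came from RefSeq (GRCm38.p6) and matched 8 of 8 adipokines by symbol. Python 3.11.15, numpy 2.4.6, pandas 2.3.3 and matplotlib 3.10.9 were used.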

Additional observations from a re-analysis of the deposited data

Results flagged for a closer look

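In the groups of 4 libraries, 1 library stood far from the other 3 for Retn and for Apln, both in DoxSa. For Retn, DoxSa 3 had 343 FPKM and the other DoxSa libraries 334 to 335 FPKM, so that its gap to the nearest took a share of 0.866 of the group's range. All 4 DoxSa values stayed below the DMSO values of 373 to 417 FPKM. For Apln, DoxSa 1 had 48.8 FPKM and the other DoxSa libraries 54.9 to 55.6 FPKM, a share of 0.901. Without DoxSa 1 the log2 fold change of Apln was 0.263 (limma, adjusted p = 0.00408), against 0.22 with it. Both shares exceed Dixon's 95% critical value for 4 libraries. In all, 16 groups were examined, and chance alone passes that value in about 1 in 20 groups.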

How the results depend on the processing

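Retn, Rbp4 and Apln kept their direction under all 18 alternatives. With no filter on low values all calls among the adipokines were lost, at -0.198 for Retn (adjusted p = 0.0650), -0.162 for Rbp4 (0.130) and 0.22 for Apln (0.0745), which left 0 higher and 0 lower; 5 related genes were called higher, and of all genes 158 higher and 108 lower. That setting tests 22962 genes in place of 12060. Rbp4 was also lost with no intensity trend (-0.162, adjusted p = 0.0724) and with library quality weights (-0.148, 0.0539), which left 1 adipokine lower in each. With the replicate block Rbp4 was at -0.162 (adjusted p = 0.0796) and 1 adipokine was lower. The replicate numbers did not pair the libraries, since deviations of same-numbered libraries correlated between -0.0989 and 0.0654. The cause of these losses was not tested. Adipoq changed sign with quantile normalization (0.00465).

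Leaving out 1 library at a time gave -0.0313 to 0.00939 for Adipoq, -0.215 to -0.161 for Retn, -0.184 to -0.132 for Rbp4 and 0.202 to 0.263 for Apln. It gave -0.167 to -0.0499 for Lep, -0.106 to -0.0508 for Cfd, 0.000948 to 0.0806 for Nampt and -0.123 to -0.00271 for Nrg4. It gave 0 to 1 adipokines higher and 1 to 2 lower, 5 to 11 related genes higher, and 233 to 490 of all genes higher and 152 to 235 lower, against 468 and 244 with all libraries. Of all genes, 233 were higher and 152 lower without DoxSa 2, 247 and 154 without DoxSa 1, 308 were higher without DoxSa 3, and 158 were lower without DMSO 2. Over the 18 alternatives the median log2 fold change of all genes lay between -0.00622 and 0.0179. Nrg4 has no value at a minimum mean of 2 FPKM.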
